A study of Homo sapiens with 12 samples.

Results

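The BCL2 family of apoptosis regulators was examined as 10 genes taken by name, out of 28278 gene symbols with RNA-seq counts: the anti-apoptotic genes MCL1, BCL2 and BCL2L1 (which encodes BCL-XL), the effectors BAX and BAK1, and the BH3-only genes BCL2L11 (BIM), PMAIP1 (NOXA), BBC3 (PUMA), BID and BIK. The study asked how cancer cells become resistant to hydroxychloroquine (HCQ), a lysosomal inhibitor that blocks the last step of autophagy, and it evolved OVCAR3, an ovarian cancer line, and CCL218, a colorectal cancer line, both described there as p53 mutant. HCQ-evolved cells, at passage 15, had been through 15 cycles of 48 h with HCQ followed by recovery, while control cells, at passage 19, were passaged on a paired plate without the drug. All cells then grew for 7 days without HCQ before polyA RNA was taken. Each of the 4 groups (control OVCAR3, HCQ-evolved OVCAR3, control CCL218 and HCQ-evolved CCL218) held 3 libraries, labelled L, M and R. The letters were read here as the left, middle and right of the plate. Each library was a pool of wells from 1 part of 1 plate. The 3 pools of a group therefore came from 1 plate each, and p-values measure the spread between such pools. Passage number differed with treatment, so the 2 cannot be told apart. In pooled RNA, fewer cells that express a gene and less of its RNA per cell cannot be told apart.

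Proteins of the BCL2 family decide at the outer mitochondrial membrane whether a cell starts the intrinsic pathway of apoptosis. BAX and BAK1 form the pores that release cytochrome c, the anti-apoptotic members hold them and the BH3-only proteins in check, and BH3-only proteins, which are made or activated under stress, bind the groove of anti-apoptotic members or activate the effectors directly. MCL1 and NOXA are short-lived proteins, and NOXA binds MCL1 in preference to BCL-XL, so that the RNA levels of members do not set protein levels alone.

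What the 10 genes share is the BH3 segment, a short helix with an invariant leucine and, 4 residues further on, a small residue followed by aspartate. The coding sequence of this segment is shown for 6 members, read 5′ to 3′ from the GENCODE 44 transcripts on GRCh38, because it is the feature by which the family recognises its own members. Capitals mark the codon of the leucine and the 2 codons of the small residue and the aspartate.
MCL1, chr1:150578865-150578909, minus strand: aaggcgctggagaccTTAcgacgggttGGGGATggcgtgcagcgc
BCL2L1, chr20:31721922-31721966, minus strand: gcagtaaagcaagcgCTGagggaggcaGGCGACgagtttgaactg
BAX, chr19:48955772-48955816, plus strand: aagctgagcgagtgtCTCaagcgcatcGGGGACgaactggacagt
PMAIP1, chr18:59902658-59902702, plus strand: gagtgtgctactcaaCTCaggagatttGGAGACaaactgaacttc
BBC3, chr19:47226579-47226623, minus strand: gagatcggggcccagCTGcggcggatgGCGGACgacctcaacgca
BIK, chr22:43127701-43127745, plus strand: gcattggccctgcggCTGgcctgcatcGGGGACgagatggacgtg
A search of each member's principal coding transcript found 1 match to this core in each of the 10 genes. The stretches lie in coding exons, exon 1 of 3 in MCL1, 2 of 3 in BCL2L1, 3 of 6 in BAX, 2 of 2 in PMAIP1, 3 of 4 in BBC3 and 3 of 5 in BIK. The small residue was glycine in 9 members and alanine in BBC3. The core lay at residues 29 to 34 of the 54 residues of PMAIP1, the shortest member, and at residues 213 to 218 of the 350 residues of MCL1, the longest.

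The libraries held between 31147822 and 59965861 counts, and levels are given as CPM, a gene's count scaled to the size of its library. Markers did not tell the control libraries apart as labelled, so OVCAR3 and CCL218 below mean the libraries that carry those labels. The 8 ovarian line markers summed to 40.1 to 66.3 CPM in control OVCAR3 and to 61.3 to 122 CPM in control CCL218, with 40.8 to 64.1 CPM and 102 to 144 CPM in the HCQ-evolved groups. EMX2, SOX17 and ESR1 were at or under 3 counts in all 4 groups, and the leading marker was MUC16 (22.4 CPM) in control OVCAR3 and MSLN (63.6 CPM) in control CCL218. The 9 colorectal markers summed to 907 to 1120 CPM in control OVCAR3 and to 1110 to 1600 CPM in control CCL218, led in both by the intestinal gene LGALS4 (730 and 1050 CPM). In the HCQ-evolved groups the colorectal sums were apart, at 225 to 648 CPM in OVCAR3 and 1150 to 1210 CPM in CCL218. Epithelial keratins and EPCAM were high in every group, and markers of fibroblasts, blood cells and endothelium summed to between 2.68 and 5.16 CPM in each library. Libraries also differed in how their counts followed transcript length, and HCQ-evolved OVCAR3 R (Spearman correlation of its deviation with transcript length across genes 0.522), control OVCAR3 M (0.479) and control CCL218 L (-0.453) stood away from the other pools of their group. HCQ-evolved CCL218 L (-0.215) also had the opposite sign to M (0.262) and R (0.425) of its group. The members differ widely in base content, from 36.7% GC in PMAIP1 to 69.7% in BBC3, and fits without some of these pools are given with several members.

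BCL2 itself was nearly silent. It had 4 to 21 counts per library, or 0.103 to 0.377 CPM, in all 12 libraries of both lines, and it did not reach the minimum of 1 CPM set for testing. The other 9 members were above 1 CPM in every library and were tested, and the plot of levels shows each of them by pool. To compare genes with each other, CPM was divided by the length of the principal transcript in kilobases. On this scale BAX ranked first in all 4 groups, with a mean of 162 ± 34.6 CPM per kb (SD, n = 3) in control OVCAR3, followed by BCL2L1 at 131 ± 21.4 and MCL1 at 93.1 ± 12.3. The ranges of BAX and BCL2L1 overlapped in control OVCAR3, and so did those of BIK and BCL2L11, whereas every other neighbouring pair in that group had separate ranges. PMAIP1 and BCL2L11 were among the least abundant members in control OVCAR3, at 10.8 ± 0.482 and 2.57 ± 1.0 CPM per kb. The rank of BAX rests on the 795 bases of its principal transcript. With the length of all annotated exons, BCL2L1 ranked first in both control groups and in HCQ-evolved CCL218, at 80.3 ± 13.1 CPM per kb in control OVCAR3 against 59.1 ± 7.79 for MCL1 and 49.9 ± 10.6 for BAX. In HCQ-evolved OVCAR3 with principal transcripts, BCL2L1 (76.7 ± 22.8 CPM per kb), MCL1 (54.4 ± 3.69) and BBC3 (52.8 ± 6.25) had ranges that ran into one another, as did BBC3 and BID, and PMAIP1 and BCL2L11. Control CCL218 held BAX (154 ± 21.1), BCL2L1 (117 ± 25.8) and MCL1 (67.8 ± 9.01) in the same order, with overlap of BAX and BCL2L1, of MCL1 and BBC3, of BBC3 and BID and of BCL2L11 and BIK. HCQ-evolved CCL218 kept the order of the 10 genes, from BAX (113 ± 15.7) and BCL2L1 (82.1 ± 7.03) down to BIK (3.22 ± 0.428) and BCL2 (0.0467 ± 0.00687), and there no neighbours overlapped.

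**Figure D1:**
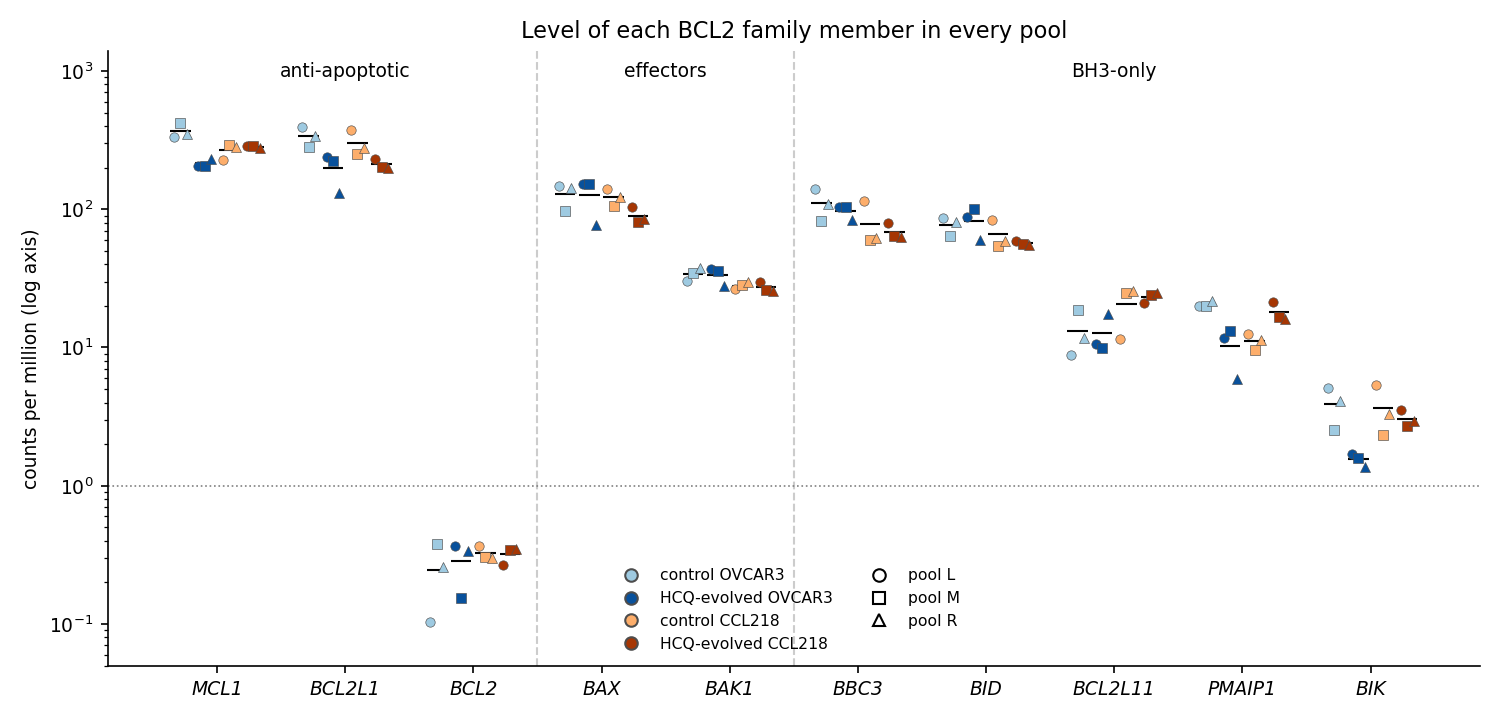
Level of the 10 members in CPM on a log axis, by pool, with the group mean as a line and the dotted line at the 1 CPM minimum for testing. BCL2 lay under that minimum in all 12 libraries, and the HCQ-evolved pools of MCL1, BCL2L1, PMAIP1 and BIK in OVCAR3 lay below all of their controls.

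With the edgeR quasi-likelihood test and Benjamini-Hochberg adjustment over all genes, 0 of 9 tested members were differentially expressed in OVCAR3, where 1.86% of the 12204 genes tested were. At an unadjusted p under 0.05 there were 4 members, MCL1, BCL2L1, PMAIP1 and BIK, and this share lay above the 16.2% of all genes. All 4 were lower in HCQ-evolved pools. Pools did not overlap with those of the control for these 4 of 9 members, against 25.7% of all genes. This rests on the same values as the p-values and is not separate support. The median log2 fold change of the 9 members was -0.16, against 0.02 over all genes. DESeq2 called 3 of them (MCL1, PMAIP1 and BIK), with 1105 of 12195 genes called over all, and limma voom called 0, with 259 of 12204. In CCL218 the edgeR count was again 0 of 9, against 6.46% of 12241 genes, with 3 members at an unadjusted p under 0.05, BCL2L1 and BAX lower and PMAIP1 higher. That share was close to the 25.2% of all genes, as was the number of members whose pools did not overlap, 3 of 9 against 36.0%. DESeq2 called 1 member there, PMAIP1, with 2172 of 12241 genes called over all, and limma voom called 0, with 839 of 12241. With plate position as a block, PMAIP1 and BCL2L1 passed the threshold in CCL218, as given with each below, with 1744 of 12241 genes called over all. Deviations of same-position pools from their group means correlated there at 0.578 (L), 0.31 (M) and 0.241 (R). Control M correlated more with HCQ-evolved R (0.516), and in OVCAR3 the same-position values were 0.452, -0.726 and -0.528. An effect of plate position was thus not established.

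**Figure D2:**
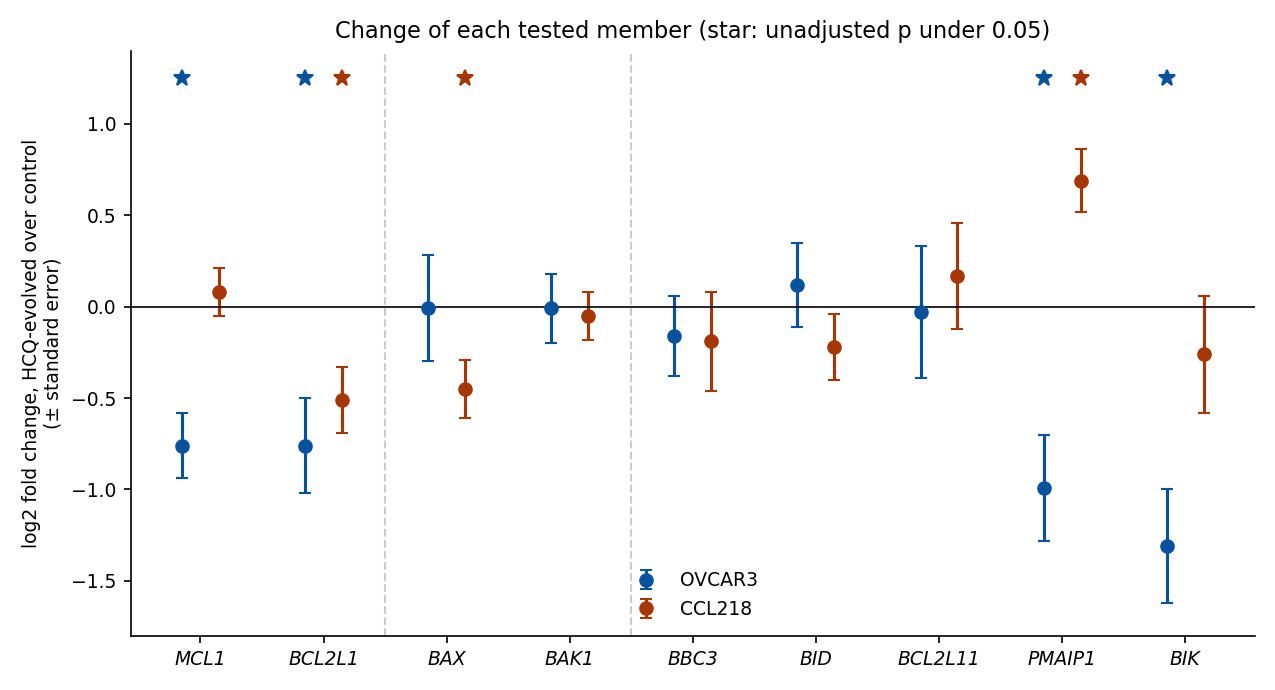
Log2 fold change of the 9 tested members, HCQ-evolved over control, with its standard error, in OVCAR3 (blue) and CCL218 (brown). Stars mark an unadjusted p under 0.05, which 4 members had in OVCAR3 and 3 in CCL218, and PMAIP1 lies on opposite sides of 0 in the lines.

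Among the anti-apoptotic genes, MCL1 was lower in HCQ-evolved OVCAR3 and about level in CCL218. In control OVCAR3 it measured 332, 423 and 348 CPM in pools L, M and R, and in HCQ-evolved OVCAR3 it measured 207, 207 and 232 CPM. Every HCQ-evolved pool lay below every control pool, and the HCQ-evolved pools were close together. In edgeR this was a log2 fold change of -0.76 (standard error 0.18), a level 1.69-fold lower, with an adjusted p of 0.085. Over the other fits of all pools the adjusted p ran from 0.00188 (DESeq2) to 0.305 (plate position as a block), with 0.0123 after removal of the length and GC trend. Leaving out HCQ-evolved R gave 0.0485 at a log2 fold change of -0.83, and leaving out any other pool gave 0.185 to 0.281, with -0.64 (adjusted p = 0.224) without control M. In CCL218, MCL1 measured 227, 293 and 284 CPM in control and 285, 287 and 278 CPM in HCQ-evolved pools. The groups overlapped, with control L alone below the others, and edgeR gave a log2 difference of 0.08 (standard error 0.13, adjusted p = 0.736). Without control L the difference was -0.034.

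BCL2L1, whose main product BCL-XL guards against BAX and BAK1, was lower in the HCQ-evolved pools of both lines. It measured 390, 280 and 341 CPM in control OVCAR3 and 239, 223 and 130 CPM in HCQ-evolved OVCAR3. The groups did not overlap, and HCQ-evolved R was the lowest of the 6 by a wide margin. With edgeR the fold change came to -0.76 on the log2 scale (standard error 0.26) at an adjusted p of 0.193, to -0.54 (adjusted p = 0.167) without HCQ-evolved R, and to -0.87 (adjusted p = 0.243) without control M. Leaving out any other pool gave adjusted p-values of 0.269 to 0.492. In CCL218 the control pools held 376, 250 and 276 CPM and the HCQ-evolved pools 232, 202 and 200 CPM. These groups did not overlap either, and control L was far above the other 2 controls. On the log2 scale the HCQ-evolved mean was at -0.51 relative to control (standard error 0.18) with an adjusted p of 0.132, and with plate position as a block it was at -0.49 with an adjusted p of 0.0465. Without control L the value was nearer 0, at -0.33, with an adjusted p of 0.0337, whereas leaving out any other pool gave 0.0927 to 0.421 and the fit of all 12 libraries 0.245. Without HCQ-evolved L the value was -0.58 (adjusted p = 0.255). BCL2L1 shares 1735 exonic bases with the antisense gene ABALON, which had 71 to 430 counts against 7770 to 18436 for BCL2L1, and the strand setting of the counting is not given in the sources used here.

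Neither effector separated the groups in OVCAR3. BAX measured 147, 97.4 and 143 CPM in control OVCAR3 and 151, 152 and 77.1 CPM in HCQ-evolved OVCAR3. The groups overlapped, with control M and HCQ-evolved R low, and the log2 fold change was -0.01 (standard error 0.29). It was 0.24 with HCQ-evolved R left out and -0.18 with control M left out. In CCL218 the pools were apart, with 139, 106 and 122 CPM in control and 104, 80.7 and 84.9 CPM in HCQ-evolved cells. Here HCQ-evolved L lay just under control M. The log2 fold change of -0.45 (standard error 0.16) had an adjusted p of 0.14, and 0.0531 with plate position as a block. It was -0.35 (adjusted p = 0.058) without control L, -0.565 (adjusted p = 0.198) without HCQ-evolved L and -0.27 (adjusted p = 0.17) after removal of the length and GC trend. BAK1, the other pore former, ranged from 28.0 to 37.4 CPM over the 6 OVCAR3 pools and from 25.7 to 29.9 CPM over the 6 CCL218 pools. Its groups overlapped in both lines, and its log2 fold changes were -0.01 (standard error 0.19) and -0.05 (0.13). BAK1 has the processed pseudogenes BAK1P1 and BAK1P2, which could take up some of its reads.

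PMAIP1, which encodes the MCL1-binding protein NOXA, was lower in the HCQ-evolved pools of OVCAR3 and higher in those of CCL218. Control OVCAR3 held 19.9, 20.0 and 21.6 CPM, and HCQ-evolved OVCAR3 held 11.7, 13.2 and 5.94 CPM. The control pools were nearly equal, all HCQ-evolved pools lay below them, and HCQ-evolved R was again the lowest. This gave a log2 fold change of -0.99 (standard error 0.29), a level 1.98-fold lower, with an adjusted p of 0.144. It was -0.72 (adjusted p = 0.0716) with HCQ-evolved R left out, and leaving out control M gave an adjusted p of 0.26. Leaving out any other pool gave 0.185 to 0.393. Over the other fits of all pools the adjusted p ran from 0.0162 (length and GC trend removed, at -1.20) to 0.251 (block).

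In CCL218, PMAIP1 measured 12.5, 9.62 and 11.3 CPM in control and 21.4, 16.5 and 16.1 CPM in HCQ-evolved cells. Here every HCQ-evolved pool lay above every control pool. They differed by 0.69 on the log2 scale (standard error 0.17), a level 1.61-fold higher, with an adjusted p of 0.0616 by edgeR. With plate position as a block the adjusted p was 0.0196, and over the other fits of all pools it ran from 0.00425 (DESeq2) to 0.15 (all 12 libraries). It was 0.00534 without control L and 0.111 to 0.209 without any other pool, highest without HCQ-evolved L, at a log2 fold change of 0.55. As a percentage of MCL1 counts in the same library, PMAIP1 made up 4.26 ± 1.12 in control and 6.35 ± 1.02 (SD, n = 3) in HCQ-evolved CCL218, with an exact permutation p of 0.1 (two-sided), the smallest that 3 against 3 pools allow. In OVCAR3, where both genes were lower, it made up 5.64 ± 0.794 and 4.87 ± 2.03 (exact permutation p = 0.7, two-sided).

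The promoter of PMAIP1 is shown as background, because stress factors such as ATF4 are known to act on the gene. These are the 100 bases before its start in RefSeq on GRCh38.p14, with the cyclic AMP response element core (CGTCA, or TGACG on the other strand) in capitals.
PMAIP1 promoter, chr18:59899896-59899995, plus strand: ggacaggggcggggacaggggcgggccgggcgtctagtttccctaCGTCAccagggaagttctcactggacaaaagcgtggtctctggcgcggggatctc
There was 1 match here, which began 55 bases before the start. The same letters stood, on either strand, in 24.6% of all 35116 promoters of 300 bases searched. Of the 8 members with an entry, 4 had a promoter with a match (PMAIP1, BCL2, BAX and BCL2L1). The first share counts promoter entries and the second counts genes, so the 2 cannot be compared. BCL2L1 and BID had more than 1 entry each, and 1 entry of BCL2L1 had no match. A role of this match in the change of PMAIP1 was not tested in either line.

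BIK, a BH3-only protein of the endoplasmic reticulum, had the largest fold change among the members in OVCAR3 at a low level. It measured 5.11, 2.54 and 4.13 CPM in control OVCAR3 and 1.71, 1.58 and 1.37 CPM in HCQ-evolved OVCAR3, from 81 to 223 and from 82 to 98 counts. All HCQ-evolved pools lay below the controls, which were themselves spread out. The log2 fold change was -1.31 (standard error 0.31), a level 2.49-fold lower, with an adjusted p of 0.0825, and other fits of all pools gave adjusted p-values from 0.00336 (DESeq2) to 0.207 (block). It was -1.24 (adjusted p = 0.0713) without HCQ-evolved R, -1.54 (adjusted p = 0.0997) without control M, and -1.10 (adjusted p = 0.0459) after removal of the length and GC trend. Leaving out any other pool gave adjusted p-values of 0.191 to 0.29. In CCL218, control pools held 5.36, 2.33 and 3.33 CPM and HCQ-evolved pools 3.51, 2.71 and 2.96 CPM. These overlapped, and the log2 fold change was -0.26 (standard error 0.32), or 0.10 without control L. The genes whose log2 CPM ran most like that of BIK over the 12 libraries, of 11943 genes, were CASP9 (Pearson r = 0.932), LURAP1L (0.928), FAM171A2 (0.927), OSCP1 (0.926) and PUS3 (0.926). These points share libraries, and with them depth and length trend.

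BCL2L11, BBC3 and BID did not separate the groups in either line. BCL2L11, whose product BIM binds all the anti-apoptotic members, ranged from 8.82 to 18.7 CPM over the OVCAR3 pools and from 11.5 to 25.5 CPM over the CCL218 pools, with log2 fold changes of -0.03 (standard error 0.36) and 0.17 (0.29). In CCL218 its range came from control L, which at 11.5 CPM was well under the 5 other pools, and without that pool the value was -0.12. In OVCAR3 it was 0.33 without control M. It shares 727 exonic bases with MIR4435-2HG on the opposite strand, which had 105 to 416 counts against 342 to 1474 for BCL2L11.

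BBC3, a p53 target like PMAIP1, gave 141, 81.7 and 109 CPM in control OVCAR3 and 104, 104 and 84.2 CPM in HCQ-evolved OVCAR3. The groups overlapped, at a log2 fold change of -0.16 (standard error 0.22), or -0.33 without control M. In CCL218 it gave 114, 59.8 and 61.6 CPM in control and 79.6, 64.3 and 62.5 CPM in HCQ-evolved cells, for a log2 fold change of -0.19 (standard error 0.27). Control L stood alone at the top, and without it the value was 0.17. BID, which caspase 8 cleaves to link death receptors to mitochondria, ranged from 60.3 to 100 CPM in OVCAR3 pools and from 54.2 to 84.0 CPM in CCL218 pools, with log2 fold changes of 0.12 (standard error 0.23) and -0.22 (0.18). In OVCAR3 the BID value was 0.004 without control M and 0.29 without HCQ-evolved R. In CCL218 it was -0.005 without control L.

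By role and per kilobase, the anti-apoptotic genes made up 41.5%, 48.5% and 41.5% of the members' summed level in control OVCAR3 pools L, M and R, and 31.6%, 30.3% and 36.4% in HCQ-evolved pools. The groups did not overlap. In CCL218 the shares were 40.2%, 44.3% and 42.5% in control and 40.9%, 44.3% and 43.3% in HCQ-evolved pools, which overlapped. The effector share was 35.0%, 31.1% and 37.0% in control OVCAR3 and 45.1%, 45.1% and 36.6% in HCQ-evolved OVCAR3, with HCQ-evolved R inside the control range. In CCL218 it was 37.1%, 37.8% and 39.7% in control and 36.5%, 33.3% and 34.7% in HCQ-evolved pools, all of them below the controls. The BH3-only share ran from 20.4% to 23.5% in control OVCAR3 and from 23.3% to 27.1% in HCQ-evolved OVCAR3. In CCL218 it ran from 17.8% to 22.7% and from 22.1% to 22.6%. With principal transcripts it thus overlapped in both lines. With the length of all exons the anti-apoptotic shares in OVCAR3 were still apart, at 49.4% to 55.5% in control and 38.3% to 43.3% in HCQ-evolved pools. The effector shares in CCL218 then overlapped (25.3% to 27.9% and 23.4% to 25.6%). In OVCAR3 that length put the effector shares apart (21.9% to 25.9% in control, 26.9% to 33.2% in HCQ-evolved pools). It also put the BH3-only shares there apart (22.6% to 26.8% and 27.1% to 29.7%). With the longest transcript the OVCAR3 BH3-only shares were narrowly apart (24.6% to 29.0% and 29.2% to 32.7%). The OVCAR3 effector shares then overlapped (24.7% to 29.6% and 29.2% to 36.7%). With principal transcripts the summed level was 568, 445 and 532 CPM per kb in control OVCAR3 and 459, 460 and 300 in HCQ-evolved OVCAR3. A share can thus be higher without a higher level of its genes. By edgeR, 0 effector and 0 BH3-only genes were higher in HCQ-evolved OVCAR3 at an unadjusted p under 0.05.

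Whether the change in a member differed between the lines was tested as an interaction, the log2 fold change in CCL218 minus that in OVCAR3. With edgeR 0 of 9 members passed after adjustment, against 0.872% of 12613 genes. DESeq2 called 2 members, with 463 of 12609 genes called over all, and limma voom called 0, with 114 of 12613. By edgeR 3 members had an unadjusted p under 0.05 (9.11% of all genes). For PMAIP1 the difference was 1.69 (standard error 0.36, adjusted p = 0.0636). Over the other fits of all pools the adjusted p ran from 0.000704 (DESeq2) to 0.158 (block). Leaving out HCQ-evolved OVCAR3 R gave 0.0127 at a difference of 1.41, and leaving out any other pool gave 0.0543 to 0.18. For MCL1 the difference was 0.86 (standard error 0.20, adjusted p = 0.0851), with 0.00328 by DESeq2 and 0.304 with the block. BIK was the other of the 3, at 1.08 (standard error 0.46, adjusted p = 0.478). For BCL2L1, lower in both lines, it was 0.26 (standard error 0.33, adjusted p = 0.999), so a difference between the lines was not detected.

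**Figure D3:**
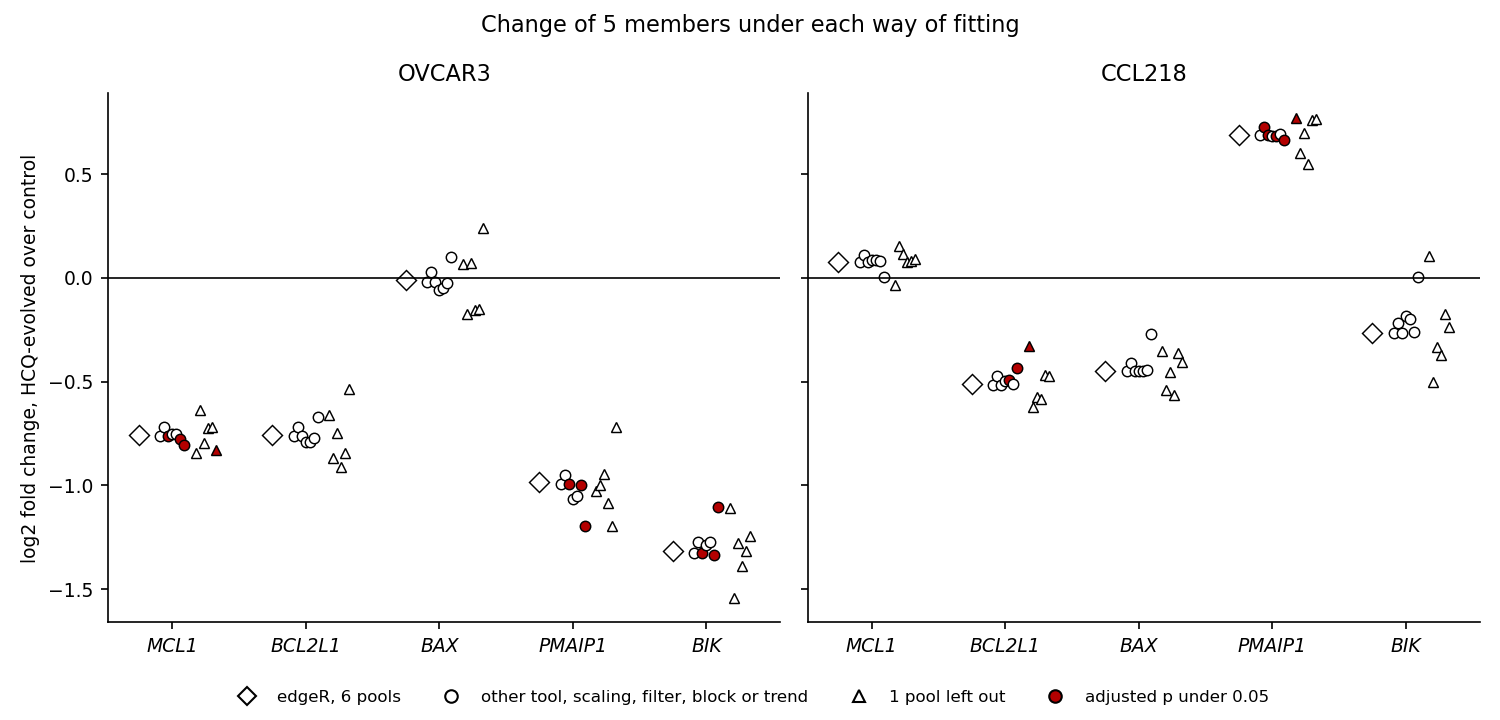
Log2 fold change of MCL1, BCL2L1, BAX, PMAIP1 and BIK in each line from edgeR on 6 pools (diamonds), from other tools, scalings, filters, a block or a trend correction (circles), and with 1 pool left out (triangles). Red marks an adjusted p under 0.05, and MCL1, BCL2L1, PMAIP1 and BIK in OVCAR3 and PMAIP1, BCL2L1 and BAX in CCL218 kept their sign throughout.

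The genes around the members were followed in 6 lists. Of 13 other BCL2 family genes, 9 were tested in OVCAR3 with 1 raised and 0 lowered, and 10 in CCL218 with 2 raised and 0 lowered, against 1.86% and 6.46% of all genes in either direction. BNIP3L, a mitophagy receptor, measured 114, 118 and 126 CPM in control OVCAR3 and 203, 226 and 242 CPM in HCQ-evolved OVCAR3, and it rose by a log2 fold change of 0.92 (adjusted p = 0.0406). With HCQ-evolved R left out the adjusted p was 0.0289, and with any other pool left out it was 0.11 to 0.184 at log2 fold changes of 0.87 to 0.99. In CCL218 it rose by 1.27 (adjusted p = 0.00275). BCL2L15, a family gene expressed in the gut, rose in CCL218 from 12.5, 12.6 and 13.2 CPM to 27.6, 29.6 and 25.0 CPM, a log2 fold change of 1.10 (adjusted p = 0.00537). The HCQ-evolved pools of both genes lay wholly above their controls. The list's medians were 0.25 in OVCAR3 and 0.04 in CCL218, against 0.02 and -0.02 over all genes.

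Of 19 genes of the apoptosome, the caspases and their inhibitors, all were tested, with 1 raised in OVCAR3, 2 in CCL218 and 0 lowered, against the same 1.86% and 6.46%. The inhibitor of apoptosis BIRC3 (cIAP2), a ubiquitin ligase of the TNF receptor complex, rose from 1.86, 3.05 and 2.89 to 6.46, 6.71 and 8.05 CPM in OVCAR3, a log2 fold change of 1.46 (adjusted p = 0.0484), with 0.11 to 0.199 when any pool but HCQ-evolved R was left out. In CCL218 it rose from 2.31, 2.79 and 2.22 to 7.29, 7.34 and 9.46 CPM (1.72, adjusted p = 0.00475), and its relative BIRC2 rose there by 0.78 (adjusted p = 0.0462, and 0.068 to 0.227 without any pool but control L). The list's median log2 fold changes were 0.11 in OVCAR3 and 0.02 in CCL218. Of 9 death receptor genes, all tested, 0 passed in OVCAR3 by edgeR, where 1 had an unadjusted p under 0.05 (16.2% of all genes). DESeq2 called 1 of the 9, with 1105 of 12195 genes called over all, and limma voom called 0. In CCL218 the adaptor FADD rose by 0.80 (adjusted p = 0.0166), with 0.0531 to 0.102 when control R or any HCQ-evolved pool was left out. DESeq2, limma voom and the fit with plate position as a block each called 2 of the 9 there. Over all genes they called 2172, 839 and 1744 of 12241. The list's medians were 0.23 in OVCAR3 and 0.12 in CCL218. FAS, the receptor that signals through FADD, missed the threshold in OVCAR3 at 1.20 (adjusted p = 0.0517) and in CCL218 at 0.72 (0.0528).

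Of 9 mitochondrial docking and pore genes and of 11 partner and turnover genes (10 tested), 0 passed in either line by edgeR. In the first list VDAC3 in OVCAR3 was the 1 gene at an unadjusted p under 0.05, with 0 in CCL218, and in the second there were 0 in both lines. DESeq2 and limma voom also called 0 in these lists, whose medians lay between -0.13 and 0.14. VDAC3, a channel of the outer membrane, had a log2 fold change of 0.50 (adjusted p = 0.217) in OVCAR3 and DNM1L, the fission dynamin, -0.29 (adjusted p = 0.199) in CCL218. USP13, a deubiquitinase that stabilises MCL1, was at 0.73 (adjusted p = 0.333) in OVCAR3, and PARK7 was at -0.47 (adjusted p = 0.286) in CCL218.

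Of 16 stress transcription factors and targets, 15 were tested, and CDKN1A was the 1 gene that passed in each line, a share in CCL218 about that of all genes (6.46%). CDKN1A encodes the cell cycle inhibitor p21 and is, like PMAIP1 and BBC3, a p53 target. It measured 59.9, 66.2 and 69.2 CPM in control OVCAR3 and 28.0, 21.5 and 26.2 CPM in HCQ-evolved OVCAR3, and it fell by 1.35 on the log2 scale (adjusted p = 0.0218, and 0.0776 to 0.136 without any pool but HCQ-evolved R). In CCL218 it rose from 19.6 ± 0.915 to 44.9 ± 6.42 CPM (SD, n = 3), a log2 fold change of 1.19 (adjusted p = 0.00603). Its pools were apart in both lines. The list's medians were -0.14 in OVCAR3 and 0 in CCL218.

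**Figure D4:**
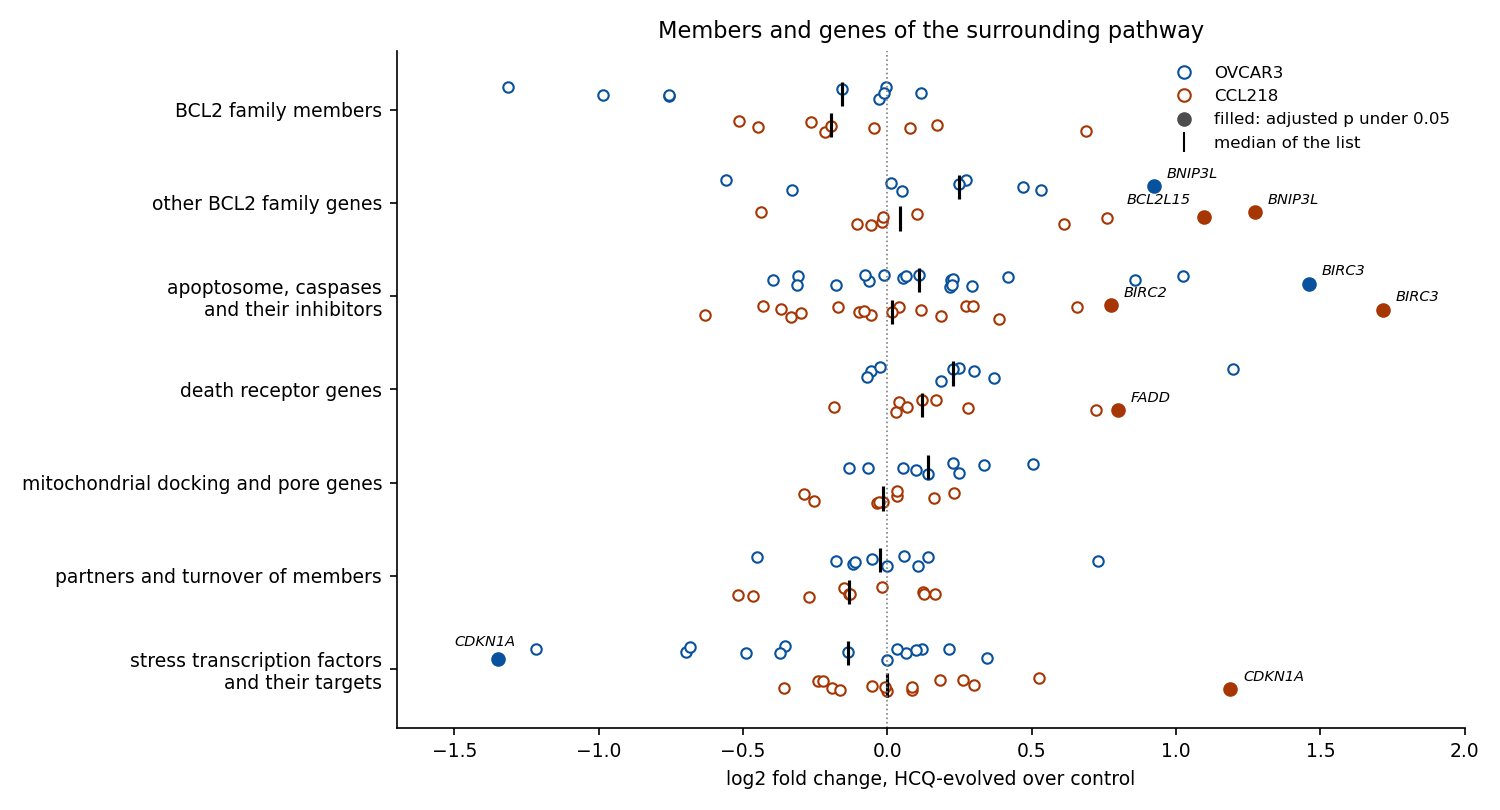
Log2 fold change of the tested members and of 6 lists of surrounding genes in OVCAR3 (blue) and CCL218 (brown), with filled points for an adjusted p under 0.05 and a bar at each list's median. Filled points are BNIP3L, BIRC3 and CDKN1A in both lines and BCL2L15, BIRC2 and FADD in CCL218, with none among the members.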

How the data were processed

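RNA-seq of 12 pools was analysed from the gene counts deposited by the authors, who aligned reads to hg38 with STAR, removed duplicates and counted with featureCounts (versions, annotation and strand setting are not given in the sources used here). Duplicate removal can lower the counts of abundant short genes. Genes with at least 1 CPM in 3 libraries were tested in edgeR 4.0.16 under R 4.3.3 (TMM, quasi-likelihood, Benjamini-Hochberg, threshold 0.05), each line against its own control, plus the interaction over 12 libraries. DESeq2 1.42.0, limma 3.58.1 voom and other alternatives were also run, and the test was checked on simulated counts. Levels are TMM-scaled CPM. Members and gene lists were chosen with earlier results of these data known. Named pathway genes were those past the threshold in either line and the smallest p per list and line.

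Deviations of same-position pools of control and HCQ-evolved CCL218 correlated positively across genes (0.578 for L, 0.31 for M and 0.241 for R). The block for plate position is therefore given where it changes a call. In CCL218, pools of different positions correlated at -0.668 to 0.516, and control M more with HCQ-evolved R (0.516) than with HCQ-evolved M (0.31). The positions were read from the letters L, M and R in the labels. In OVCAR3 the same check failed (0.452, -0.726 and -0.528). Symbols were matched to GENCODE 44 (90.1%). Totals ran from 31147822 to 59965861 counts. BCL2 was under the CPM minimum and was not tested. Lengths other than the principal transcript's were tried after seeing the data.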

Additional observations from a re-analysis of the deposited data

Results flagged for a closer look

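CDKN1A, among the genes followed around the members, changed differently in the lines: its log2 fold change in CCL218 minus that in OVCAR3 was 2.56 (standard error 0.22, adjusted p = 0.000539, edgeR interaction), with all 3 HCQ-evolved pools below the controls in OVCAR3 and all 3 above them in CCL218.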

How the results depend on the processing

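The count of 9 tested members past the threshold was 0 by edgeR and depended on the fit. In OVCAR3 it was 3 by DESeq2, 3 with all 12 libraries in 1 fit and 3 with the length and GC trend removed (MCL1, PMAIP1 and BIK each time), and 0 to 1 with a pool left out, MCL1 without HCQ-evolved R. Over all genes these fits called 1105 of 12195, 1165 of 12613, 820 of 12204 and, without HCQ-evolved R, 557 of 12113. In CCL218 the member count was 1 without the low-count filter and 1 by DESeq2 (PMAIP1), 2 with plate position as a block, 2 with the trend removed, and 0 to 2 with a pool left out, the 2 without control L (PMAIP1 and BCL2L1 each time). Over all genes these fits called 1005 of 21730 without the filter, then 2172, 1744 and 1951 of 12241. Without control L they called 3047 of 12102. For the interaction the member count was 1 without the filter (PMAIP1), 2 by DESeq2 and 2 with the trend removed (PMAIP1 and MCL1), and 0 to 1 with a pool left out (PMAIP1 without HCQ-evolved OVCAR3 R). Over all genes these fits called 122 of 23167, 463 of 12609, 313 of 12613 and 212 of 12568. The cause of the dependence on the fit was not tested.

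Over all genes, edgeR counted 227 in OVCAR3, 791 in CCL218 and 110 for the interaction. In OVCAR3 this was 549 without the filter, 1105 by DESeq2, 81 with the block, 1165 with 12 libraries, 820 with the trend removed and 3 to 557 with a pool left out (highest without HCQ-evolved R, lowest without control L). In CCL218 it was 2172, 1744 and 1951 by DESeq2, with the block and with the trend removed, and 102 to 3047 with a pool left out (highest without control L, lowest without HCQ-evolved M). For the interaction it was 463, 35 and 313 likewise, and 38 to 212 with a pool left out (highest without HCQ-evolved OVCAR3 R). The block changed no other call of a member.

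Log2 fold changes near 0 changed sign, none of them past the threshold. In OVCAR3 this held for BAX (0.027 without the filter, 0.10 with the trend removed, -0.18 to 0.24 with a pool left out), BAK1 (0.031, 0.094 and -0.10 to 0.099 likewise), BCL2L11 (0.008 without the filter and by voom, -0.35 to 0.33), BBC3 (0.15 with the trend removed, -0.33 to 0.026) and BID (-0.032 to 0.29). In CCL218 it held for MCL1 (-0.034 to 0.15), BAK1 (0.053 with the trend removed), BCL2L11 (-0.12 to 0.35), BBC3 (0.14 with the trend removed, -0.35 to 0.17) and BIK (0.005 with the trend removed, -0.50 to 0.10). BNIP3L, BIRC3 and CDKN1A in OVCAR3 missed the threshold with the block (adjusted p = 0.163, 0.104 and 0.0848) and with any pool but HCQ-evolved R left out. With other lengths per gene, an alternative chosen after seeing the data, BAX ranked 1 to 3 in level per kb. BCL2 was not tested because its level was under the CPM minimum.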
